A study of Mus musculus with 4 samples.

Results

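The genes described here are 10 regulators of the G1 phase of the cell cycle and of its p53 checkpoint: the kinases Cdk4 and Cdk6, the D-type cyclins Ccnd1, Ccnd2 and Ccnd3, the inhibitors Cdkn1a, Cdkn1b and Cdkn2a, and Trp53 with its antagonist Mdm2. They were chosen by name, and every DNase I peak in the gene body or within 50 kb of it was taken, on the mouse assembly mm10 with GENCODE release M21. These 10 are among 21755 protein-coding genes on the autosomes and X. The cells were a mouse acute myeloid leukemia (AML), a cancer of immature myeloid blood cells, of strain C57BL/6J, which the labels class as differentiated in vitro. The labels name no driver mutation, treatment, time point or control, and give age and stage as unknown. There were 4 libraries, 2 technical replicates for each of 2 biological replicates, and the authors had pooled the libraries of a replicate before calling sites. Each value below therefore comes from 1 list per biological replicate, has no replicate error of its own and allows no test between samples.

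D-type cyclins bind Cdk4 or Cdk6, and these kinases phosphorylate the retinoblastoma protein, which releases E2F factors and commits a cell to DNA replication. Cdkn2a encodes p16 (Ink4a), which blocks Cdk4 and Cdk6, and, from another first exon, p19Arf, which blocks Mdm2. Mdm2 marks p53 for degradation, and p53 switches on Cdkn1a (p21), which with Cdkn1b (p27) restrains cyclin-dependent kinases. Some acute leukemias are known to depend on Cdk6, and loss of the Cdkn2a or Trp53 arm is a known step in blood cancers. DNase I cuts open chromatin, so a peak is a window where cuts are dense. It is not a measure of transcription.

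Replicate 1 had 236215 peaks on the chromosomes used and replicate 2 had 67438. A peak is a window of 150 bp with a deposited score, a whole number of unstated definition. Scores were compared only as percentiles within a list, since depth is unknown and the lists differ in length. The score ran to 150 in replicate 1, where 1820 peaks share that maximum. A replicate 1 peak is called shared when it overlaps a replicate 2 peak by at least 1 bp. As a check of the labelled lineage, 11 of 12 myeloid marker genes had a shared promoter peak (the other, Elane, had one in replicate 1 alone). So did 1 of 4 B-cell genes (Pax5), 0 of 4 T-cell genes, 0 of 4 erythroid genes, and 3 of 8 genes of stroma, endothelium, epithelium or liver. These 3 were Col1a1 (scores of 132 in replicate 1 and 64 in replicate 2), Cdh5 (130 and 21) and Epcam (99 and 32). Over all protein-coding genes 58.2% had a shared promoter peak.

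All 10 genes had a shared peak within 1 kb of an annotated transcript start, where 58.2% of all protein-coding genes had one. Taking the mean of its percentiles in both lists, the strongest such peak had a median of 92.9 over the 10 genes and 92.8 over all genes with one. The genes differed widely among themselves. Cdk4 stood highest, with a mean percentile of 99.4, followed by Ccnd3 (98.3), Trp53 (95.9), Mdm2 (93.7), Cdkn1a (93.6) and Cdkn1b (92.3). Cdk6 (83.4), Cdkn2a (83.1), Ccnd1 (81.6) and Ccnd2 (67.8) were lower, under the lower quartile of 83.5 for all genes with such a peak. The peaks of Ccnd1 and Ccnd2 ranked here lay near starts of non-coding transcripts. Start regions of non-coding transcripts inside Cdk4 (49), Cdk6 (65) and Mdm2 (54) had peaks in replicate 1 alone. With no replicate error, the order of neighbours such as Mdm2 and Cdkn1a, or Cdk6 and Cdkn2a, cannot be told from equality.

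**Figure D1:**
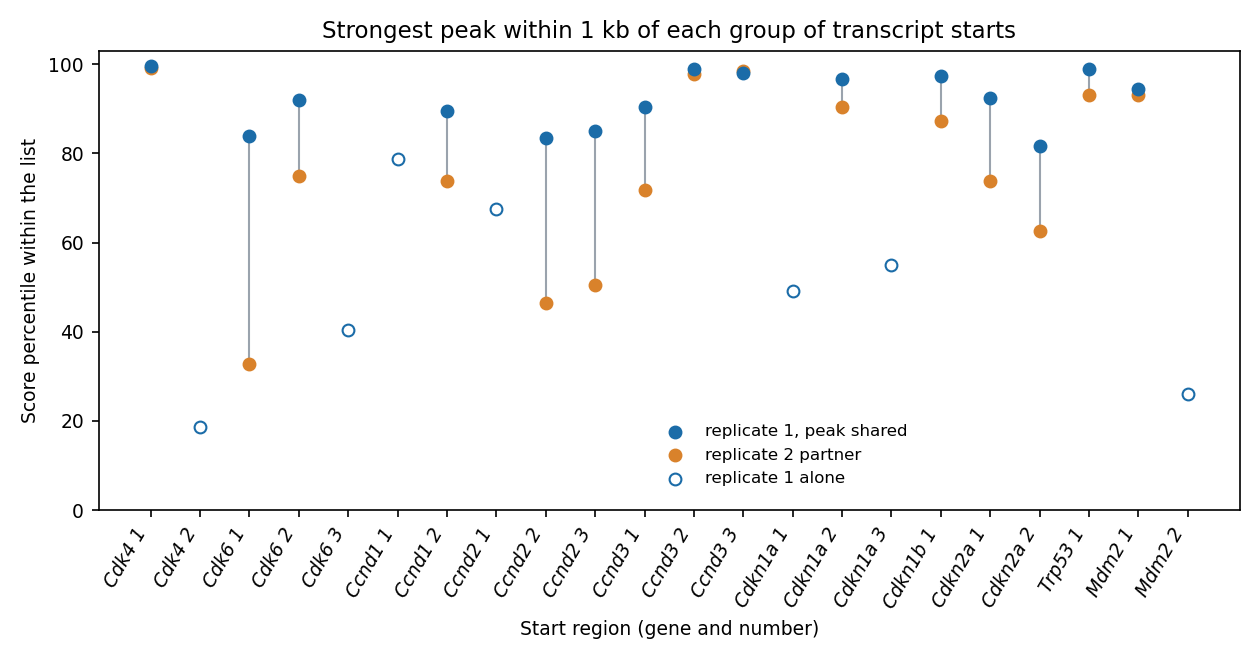
Score percentile within each list (vertical axis) of the strongest peak within 1 kb of each group of transcript starts (horizontal axis, numbered per gene); blue is replicate 1, orange its replicate 2 partner, and open circles are peaks of replicate 1 alone. Cdk4 1, Ccnd3 2 and Ccnd3 3 lie above 97 in both lists, while Cdk6 1 falls from 83.9 to 32.7 and the first starts of Ccnd1, Ccnd2 and Cdkn1a have a peak in replicate 1 alone.

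The windows of the 10 genes held 489 peaks of replicate 1, of which 117 were shared (23.9%, exact Clopper-Pearson 95% interval 20.2 to 28.0, counting error only). Over the whole list 26.1% were shared. Of 130 replicate 2 peaks, 119 overlapped a replicate 1 peak (91.5%, interval 85.4 to 95.7), beside 91.9% overall. All 11 of the others lay inside a hotspot of replicate 1, a wider region that the authors called significant, as did 85.7% of such peaks over the whole list. By class, 42.2% of replicate 1 peaks at the genes' own starts were shared, beside 44.2% of all promoter peaks, and 18.9% of those outside promoters, beside 22.0% of all. Shared peaks had a median score of 132 in replicate 1 and the 372 peaks of replicate 1 alone a median of 72, beside 123 and 63 over the whole list. Neighbouring windows can overlap each other, as 22 of the 489 did, so counts of windows overstate counts of sites.

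Outside promoters, 9 of the 10 genes had at least 1 shared peak, where 80.8% of all protein-coding genes did. The 10 genes held 70 such peaks, a median of 7 per gene against 3 over all genes, or 5.35 against 2.55 per 100 kb of window. Cdk6 and Ccnd3 had 15 each, the 98.5 percentile of all genes, and Cdkn1a had 10. Ccnd2, Trp53 and Mdm2 had 7 each, Ccnd1 had 4, Cdkn1b 3, Cdk4 2 and Cdkn2a none. These counts depend on the window: with 10 kb on each side Trp53 had 1, Ccnd2 2, Mdm2 3, Cdkn1a 4 and Ccnd3 7, while Cdk6 had 13. With 100 kb Cdkn2a had 3, Cdk4 8, Ccnd1 9, Cdkn1b 10, Mdm2 12 and Cdkn1a 17. Per length the order changed: Cdkn1a led with 9.11 per 100 kb, followed by Ccnd3 with 7.71, Trp53 with 6.28, Mdm2 with 5.74, Ccnd2 with 5.51 and Cdk6 with 5.18. Cdk6 is the longest of the 10 genes, 189.5 kb, so its window of 289.5 kb holds more sequence.

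**Figure D2:**
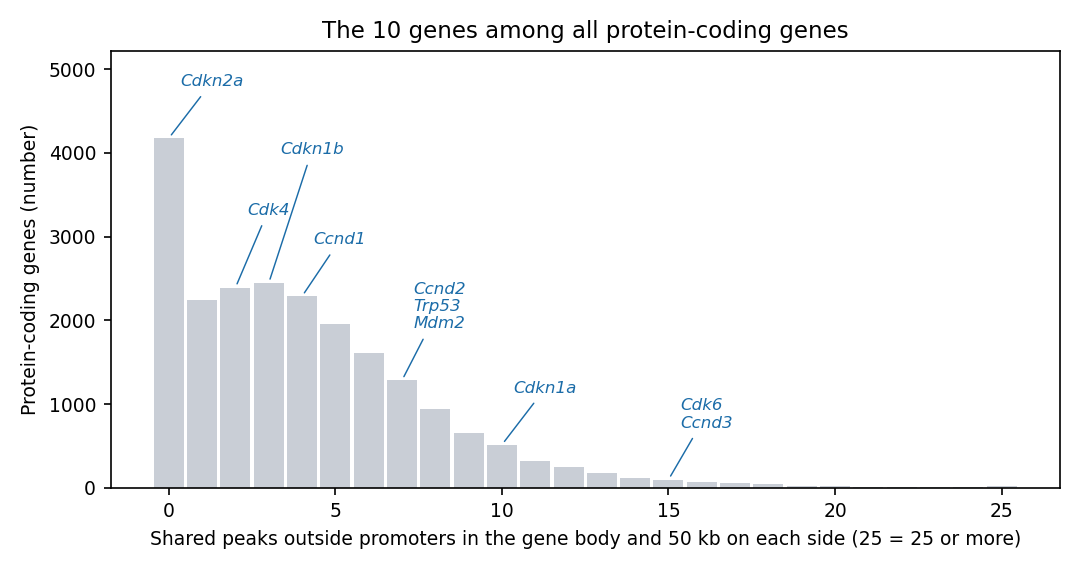
Number of protein-coding genes (vertical axis) with each number of shared peaks outside promoters in the gene body and 50 kb on each side (horizontal axis), with the 10 genes marked. Cdk6 and Ccnd3 lie at 15, Cdkn1a at 10, and Cdkn2a in the tallest bar, at 0.

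**Figure D3:**
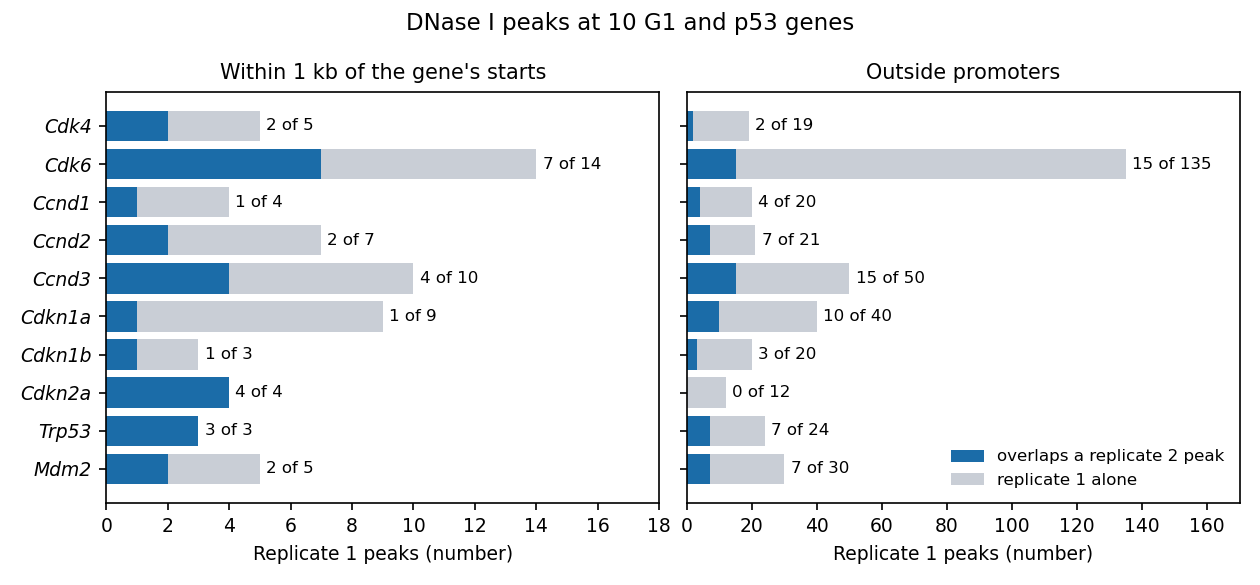
Number of replicate 1 peaks (horizontal axes) within 1 kb of each gene's own starts (left) and outside all promoters (right), split into peaks that overlap a replicate 2 peak (blue) and peaks of replicate 1 alone (grey). All 4 start peaks of Cdkn2a and all 3 of Trp53 were shared, where 44.2% of all promoter peaks were, and none of the 12 peaks outside promoters at Cdkn2a, where 22.0% of all were.

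Cdk4, the kinase partner of D cyclins in most tissues, had the strongest start peak of the set. It lay just upstream of the first transcript start, at chr10:127063356-127063505, and scored 150 in replicate 1 and 102 in replicate 2 (percentiles 99.6 and 99.2). The same open region formed a hotspot of 2796 bp in replicate 1 and 822 bp in replicate 2. The replicate 1 window is shown for its 3 copies of CACGTG, the E-box bound by MYC and related factors. On the plus strand, which is the gene's, capitals mark these, a RUNX match (the reverse complement of TGTGGTTA) and a KLF/SP match (the reverse complement of GGGCGG). The replicate 2 window, chr10:127063396-127063545, lacks the first copy and the RUNX match. It holds a further copy at chr10:127063524-127063529.

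Cdk4 start: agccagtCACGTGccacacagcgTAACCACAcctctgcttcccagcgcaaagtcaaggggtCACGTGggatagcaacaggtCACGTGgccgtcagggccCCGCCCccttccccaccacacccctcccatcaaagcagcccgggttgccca

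Of 19651 shared promoter peaks, 1251 (6.37%) held at least 1 CACGTG and 9 (0.0458%) held 3 or more. This count was made after the sequence of the Cdk4 peak had been read, so it describes the peak and is no test. A RUNX match stood in 2.74% of shared promoter peaks. A second shared peak 0.84 kb upstream of the start scored 132 and 41. Cdk4 had only 2 shared peaks outside promoters, 5.16 kb upstream in the neighbour March9 (128 and 59) and 40.3 kb downstream in Os9 (132 and 45). The gene-dense window held another 6 shared peaks at promoters of neighbours, among them Tsfm, Mettl1, Tspan31 and Agap2.

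Cdk6, the D-cyclin kinase most used in blood cells, had a different profile, with modest start peaks and a strong group far inside the gene. Around its starts 7 of 14 replicate 1 peaks were shared, beside 44.2% of all promoter peaks. The strongest, over exon 2 at chr5:3344436-3344585, scored 137 and 52 (percentiles 91.9 and 74.9), and at the main start, chr5:3343816-3343965, the scores were 133 and 50. At the most upstream start, used by 1 annotated transcript, chr5:3341356-3341505 scored 121 and 27. None of these 7 lay in a replicate 2 hotspot at the ceiling of the deposited −log10 q, which is 100. Their values there ran from 1.74 to 5.15. Over all shared promoter peaks, 69.1% lay in a replicate 2 hotspot at the ceiling.

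Of the 15 shared Cdk6 peaks outside promoters, 8 fell in intron 5, within 12.4 kb, 147 to 159 kb downstream of the main start. The strongest, at chr5:3491316-3491465, scored 149 and 72 (percentiles 98.8 and 88.1), above every peak at the gene's own starts in both lists. Next came chr5:3502656-3502805 with 148 and 69, and chr5:3491976-3492125 with 145 and 59. Introns 2, 3 and 4 held 1, 2 and 2 shared peaks, with scores in replicate 2 of at most 46, and 2 adjoining ones lay 42.8 and 42.6 kb upstream of the main start (143 and 35, 144 and 43). The 15 were shared out of 135 replicate 1 peaks of Cdk6 outside promoters, where 22.0% of all such peaks were shared. The sequences of the strongest pair with an ETS-family match are shown on the gene's strand, with capitals on an ETS match (CCGGAAGT, here as its reverse complement) in the first and a PU.1-type match (GGGGAAGT) in the second. PU.1 is the ETS factor that directs myeloid development.

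Cdk6 intron 5, chr5:3491316-3491465: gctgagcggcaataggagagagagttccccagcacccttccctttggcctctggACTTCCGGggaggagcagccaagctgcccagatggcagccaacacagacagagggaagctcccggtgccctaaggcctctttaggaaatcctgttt

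Cdk6 intron 5, chr5:3502656-3502805: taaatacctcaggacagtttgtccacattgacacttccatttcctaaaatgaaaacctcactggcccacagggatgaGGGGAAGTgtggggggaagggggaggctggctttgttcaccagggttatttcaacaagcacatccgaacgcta

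Outside promoters, 0.855% of all shared peaks held CCGGAAGT and 10.8% held a PU.1-type match, GAGGAAGT or GGGGAAGT. Among the 70 such peaks of the 10 genes, 1 (1.43%) and 6 (8.57%) did.

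**Figure D4:**
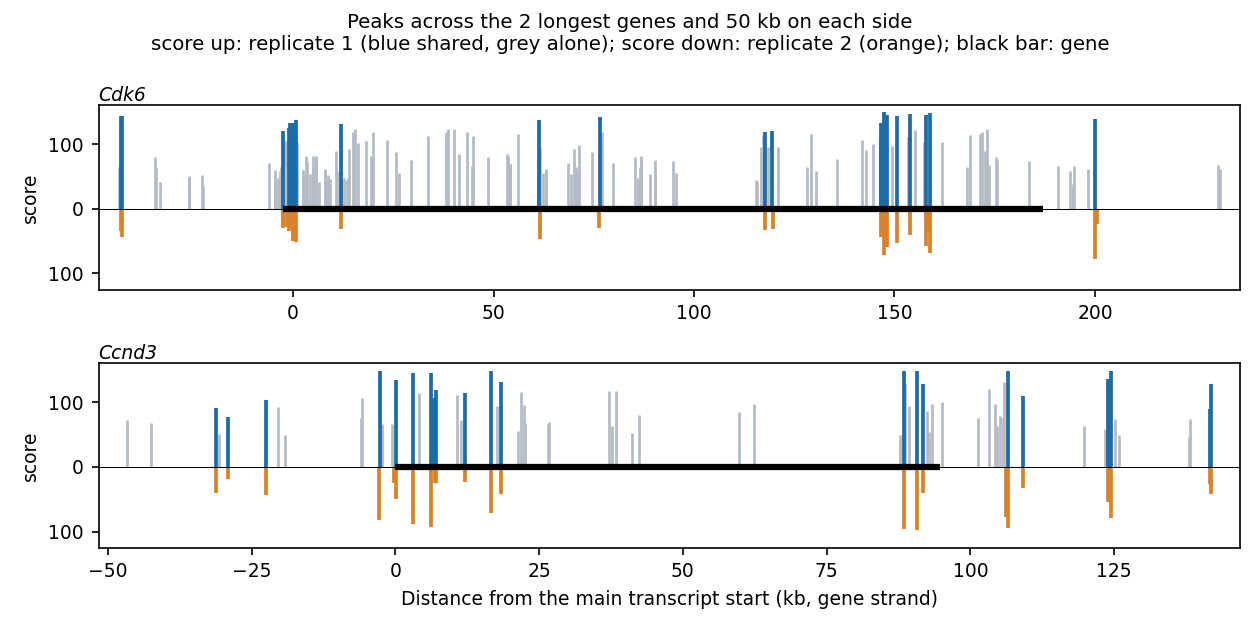
Deposited peak score (vertical axis; up for replicate 1, down for replicate 2) against distance from the main transcript start in kb (horizontal axis) across Cdk6 and Ccnd3 and 50 kb on each side, with shared peaks in blue, peaks of replicate 1 alone in grey and the gene as a black bar. At Cdk6 the longest orange bars inside the gene stand between 147 and 159 kb, and at Ccnd3 they stand at the internal starts near 88.4 and 90.6 kb and in intron 1 near 3.1 and 6.24 kb.

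The 3 D cyclins, which sense growth signals and are partly interchangeable, were open to different degrees. Ccnd3 was the most open. Its 19 annotated starts fall into an upstream group, where the best peak at chr17:47505016-47505165 scored 134 and 49, and internal groups that give shorter transcripts. At the internal groups, chr17:47593336-47593485 scored 149 and 96, and chr17:47595596-47595745 scored 148 and 98 (percentile 98.1 in replicate 1 and 98.4 in replicate 2). The internal starts thus carried higher scores than the upstream one in both lists. Coding transcripts are annotated from the upstream group (9) and from both internal groups (4 and 3).

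Intron 1 of Ccnd3 held 7 shared peaks within 15.5 kb. The strongest were chr17:47511216-47511365 (146 and 93), which has an AP-1 match, chr17:47508076-47508225 (146 and 88), and chr17:47521636-47521785 (148 and 71). Downstream, in the overlapping gene Gm20517, chr17:47629496-47629645 scored 148 and 79. The second of the intron peaks is shown because a RUNX match (the reverse complement of TGTGGTTT) and a PU.1-type match (GAGGAAGT) stand 1 base apart in it. Both families are central to myeloid cells. Capitals also mark KLF/SP matches.

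Ccnd3 intron 1: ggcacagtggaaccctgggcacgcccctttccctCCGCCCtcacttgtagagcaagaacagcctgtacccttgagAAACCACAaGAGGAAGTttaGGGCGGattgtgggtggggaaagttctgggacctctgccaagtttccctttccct

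Ccnd1 had no shared peak at its coding start, but by the strongest shared peak near any annotated start Ccnd2 ranked lowest of the 10. At its main group of starts, chr6:127150996-127151145 scored 120 and 33 (percentiles 83.3 and 46.4), and its most upstream start had peaks in replicate 1 alone, of at most 95. The peak with the highest mean percentile near any start, chr6:127146056-127146205, over exon 3 near the start of a non-coding transcript, scored 123 and 35. Stronger peaks lay elsewhere: 12.0 kb upstream at chr6:127162976-127163125 (138 and 65, with an AP-1 match), in intron 2 at chr6:127147796-127147945 (126 and 56, with a match to the CTCF consensus, a factor of chromatin loops) and in intron 3 at chr6:127143256-127143405 (140 and 41). The other 4 shared peaks outside promoters scored at most 36 in replicate 2. Near the 10 genes, CTCF matches were in 4 of 70 shared peaks outside promoters (5.71%), beside 10.2% of all such peaks. AP-1 matches were in 7 of the 70 (10.0%), beside 6.41% of all.

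Ccnd1 had no shared peak at its main start. That start, used by the coding transcript, had 2 peaks, chr7:144939696-144939845 (97) and chr7:144940276-144940425 (112), both in replicate 1 alone and in no replicate 2 hotspot. The shared peak that counts as its promoter lay in intron 2, at chr7:144937596-144937745 (132 and 51), near the start of a non-coding transcript, and held a RUNX match. Upstream, shared peaks 1.78 kb and 3.64 kb from the main start scored 139 and 38, and 133 and 45. The third in rank, 32.7 kb downstream at chr7:144907116-144907265, scored 110 and 44. The upstream sequences are shown on the gene's strand because each holds an E2F match, in capitals: TTTCCCGC in the first and TTCCCGCC, as its reverse complement, in the second. The other capitals are an NFY match (CCAAT, here as its reverse complement) and a CACGTG E-box.

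Ccnd1 upstream, chr7:144941576-144941725: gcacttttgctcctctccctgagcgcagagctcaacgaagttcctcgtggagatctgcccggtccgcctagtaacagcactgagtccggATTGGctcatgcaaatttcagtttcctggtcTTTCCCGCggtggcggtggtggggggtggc

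Ccnd1 upstream, chr7:144943436-144943585: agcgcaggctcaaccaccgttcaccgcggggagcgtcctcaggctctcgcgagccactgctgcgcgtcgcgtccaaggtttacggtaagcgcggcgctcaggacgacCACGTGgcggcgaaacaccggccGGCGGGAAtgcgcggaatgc

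E2F matches (TTTCCCGC, TTTGGCGC or TTCCCGCC on either strand) were counted in replicate 1 windows. They were found in 4 of the 70 shared peaks outside promoters near the 10 genes (5.71%), beside 0.705% of all such peaks. Of these 4 peaks, 2 are those of Ccnd1, whose matches also lie in the replicate 2 windows. Of the others, 1 lies in Cdkn1a and 1 in Dnah2, a neighbour of Trp53, and their replicate 2 windows do not hold the match. The G+C content of the 4 peaks was 59.3%, 69.3%, 62.7% and 70.0%, above the median of 50.7% for shared peaks outside promoters. The part of base composition in this share was not tested. At the genes' own starts no such difference was seen: 1 of 27 shared peaks held an E2F match (3.70%), beside 3.19% of all shared promoter peaks.

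Among the inhibitors, Cdkn1a had 3 start regions, and they differed sharply. At the region used by 2 coding transcripts, chr17:29093656-29093805 scored 146 and 77 (percentiles 96.7 and 90.4). At the upstream start, 2.79 kb away, the best peaks were chr17:29090636-29090785 (73) and chr17:29090856-29091005 (52), the 49.2 and 23.0 percentiles of replicate 1, and replicate 2 had no peak there. Nor did it at the third region, inside the gene, where the best replicate 1 peak scored 79. The weaker of these holds the only exact match, among the replicate 1 peaks near the 10 genes, to the full p53 site, which is a pair of 10-base units up to 13 bases apart. That match covers chr17:29090906-29090937, 2.83 kb upstream of the stronger start, with 12 bases between the units. It overlaps a closer pair, chr17:29090928-29090947, in which the units adjoin and each has at most 1 mismatch. p53 sites upstream of Cdkn1a are known elements of its response to DNA damage. Capitals mark both pairs, and 27 bases of the window that are annotated as UTR are left out.

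Cdkn1a upstream start: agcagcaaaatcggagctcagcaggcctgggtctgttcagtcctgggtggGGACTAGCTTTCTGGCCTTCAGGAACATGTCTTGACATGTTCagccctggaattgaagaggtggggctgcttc

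An exact full p53 site occurred in 11 of 24829 promoter peaks of replicate 1 alone (0.0443%) and in 2 of 19651 shared promoter peaks (0.010%). Adjoining pairs with at most 1 mismatch per unit, searched for after this sequence had been read, occurred in 0.270% and 0.168% of these classes. Outside promoters they occurred in 0.278% of shared peaks and 0.253% of peaks of replicate 1 alone. Near the 10 genes that search found 1 shared peak, 11.9 kb upstream of the upstream Cdkn1a start (chr17:29078996-29079145, 141 and 65). In replicate 1 alone it found the peak just shown, another downstream of Cdkn1a (52), 1 upstream of Cdk6 (80) and 1 upstream of Mdm2 (121). No match says only that the letters are not in a window.

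The strongest Cdkn1a peak was in none of the 3 start regions but in intron 1, at chr17:29095376-29095525. It lay 4.47 kb from the upstream start, where the start peak of the 2 coding transcripts lay 2.75 kb from it. The intron peak is thus close to that stronger start region. It scored 150 and 102, percentiles 99.6 and 99.2, the same pair of values as the Cdk4 start. It lay in a replicate 2 hotspot of 1472 bp. Its replicate 1 window, shown here, holds the E2F match named above, in capitals.

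Cdkn1a intron 1: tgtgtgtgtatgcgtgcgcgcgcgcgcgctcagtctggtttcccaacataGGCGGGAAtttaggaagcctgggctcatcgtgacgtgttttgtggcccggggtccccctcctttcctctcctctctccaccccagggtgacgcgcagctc

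Next in rank were 2 further shared peaks: chr17:29111496-29111645, 20.6 kb downstream of the upstream start (150 and 82), and the peak 11.9 kb upstream described above. In all, 7 of the 10 shared Cdkn1a peaks outside promoters lay upstream of the gene, over 37.1 kb, with replicate 2 scores of 30 to 65.

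Cdkn1b, whose product p27 holds quiescent cells in G1, had a single shared start peak at chr6:134920296-134920445 (147 and 70, percentiles 97.4 and 87.2), with KLF/SP and NFY matches. Its 3 shared peaks outside promoters were all downstream: chr6:134928556-134928705 (150 and 74), chr6:134927396-134927545 (134 and 49) and chr6:134947476-134947625 (116 and 34, with a CTCF match). The first scored higher than the start peak in both lists.

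Cdkn2a was open at both of its starts. The p19Arf start had 3 shared peaks, the strongest at chr4:89294716-89294865 (138 and 51, percentiles 92.4 and 73.8), in a stretch of 77.3% G+C. The p16 start, 12.5 kb inside the gene, had 1, at chr4:89282116-89282265 (117 and 42, percentiles 81.7 and 62.7). Their replicate 2 hotspots had −log10 q values of 3.31 to 5.10, below the ceiling. Outside promoters none of its 12 replicate 1 peaks was shared, and the highest scored 97 (chr4:89274056-89274205, downstream). In the same window the start of its neighbour Cdkn2b, which encodes the related inhibitor p15, scored higher, 146 and 80 at chr4:89310976-89311125.

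Trp53 had 3 start peaks, all shared and all in a single replicate 1 hotspot of 3852 bp. They were chr11:69579236-69579385 (150 and 80), chr11:69580256-69580405 (148 and 65) and, in intron 1, chr11:69581396-69581545 (149 and 83). The first and second also lie within 1 kb of starts of Wrap53, which is transcribed from the opposite strand here, so these peaks cannot be assigned to either gene. The second holds a CACGTG E-box, at chr11:69580369-69580374. Outside promoters the strongest shared peak lay 48.1 kb downstream, at chr11:69628416-69628565 (122 and 64), and the third in rank in Dnah2, at chr11:69546516-69546665 (112 and 34). The single shared one inside the gene, in intron 1, 5.67 kb from the start, scored 139 and 32. Its sequence is shown because RUNX (the reverse complement of TGTGGTTA) and PU.1-type (GAGGAAGT) matches occur together, as in the Ccnd3 peak. Counted after the sequences had been read, both occurred in 2 of the 70 shared peaks outside promoters (2.86%), beside 1.04% of all such peaks. RUNX matches alone were in 7 of the 70 (10.0%), beside 9.88% of all. The Trp53 window also holds a GATA match (AGATAA), left in lower case. GATA matches were in 4 of the 70 (5.71%), beside 5.36% of all.

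Trp53 intron 1, chr11:69585956-69586105: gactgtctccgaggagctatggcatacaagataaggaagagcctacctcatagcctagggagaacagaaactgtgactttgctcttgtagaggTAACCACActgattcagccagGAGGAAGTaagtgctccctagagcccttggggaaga

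Mdm2 has an upstream start and, in intron 1, a second one that p53 is known to drive. Both were open to a like degree: chr10:117710756-117710905 upstream scored 142 and 83, and chr10:117710076-117710225 in intron 1 scored 144 and 75. They share a replicate 2 hotspot of 1138 bp at the ceiling. The intron peak is shown on the gene's strand for its AP-1 match, TGANTCA with N as C or G. Of the 27 shared peaks at the genes' own starts, 1 (3.70%) held an AP-1 match, beside 2.66% of all shared promoter peaks.

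Mdm2 intron 1 start: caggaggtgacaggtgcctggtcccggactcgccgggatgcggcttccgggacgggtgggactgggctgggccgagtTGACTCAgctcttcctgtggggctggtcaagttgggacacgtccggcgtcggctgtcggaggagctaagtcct

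No exact p53 full site and no adjoining pair with at most 1 mismatch per unit was found in the replicate 1 window of either Mdm2 start peak. This search misses sites with more mismatches and sites that run past a window, so it does not show that the start lacks a p53 site. The pair upstream, AAACATGTACAAACATGTCC at chr10:117717736-117717755, lay 7.03 kb from the start in a peak of replicate 1 alone. Of the 7 shared peaks outside promoters, the strongest were chr10:117682636-117682785 in the neighbour Cpm (130 and 46), chr10:117747836-117747985 upstream (130 and 43) and chr10:117688356-117688505 downstream (117 and 40). None lay inside Mdm2.

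**Figure D5:**
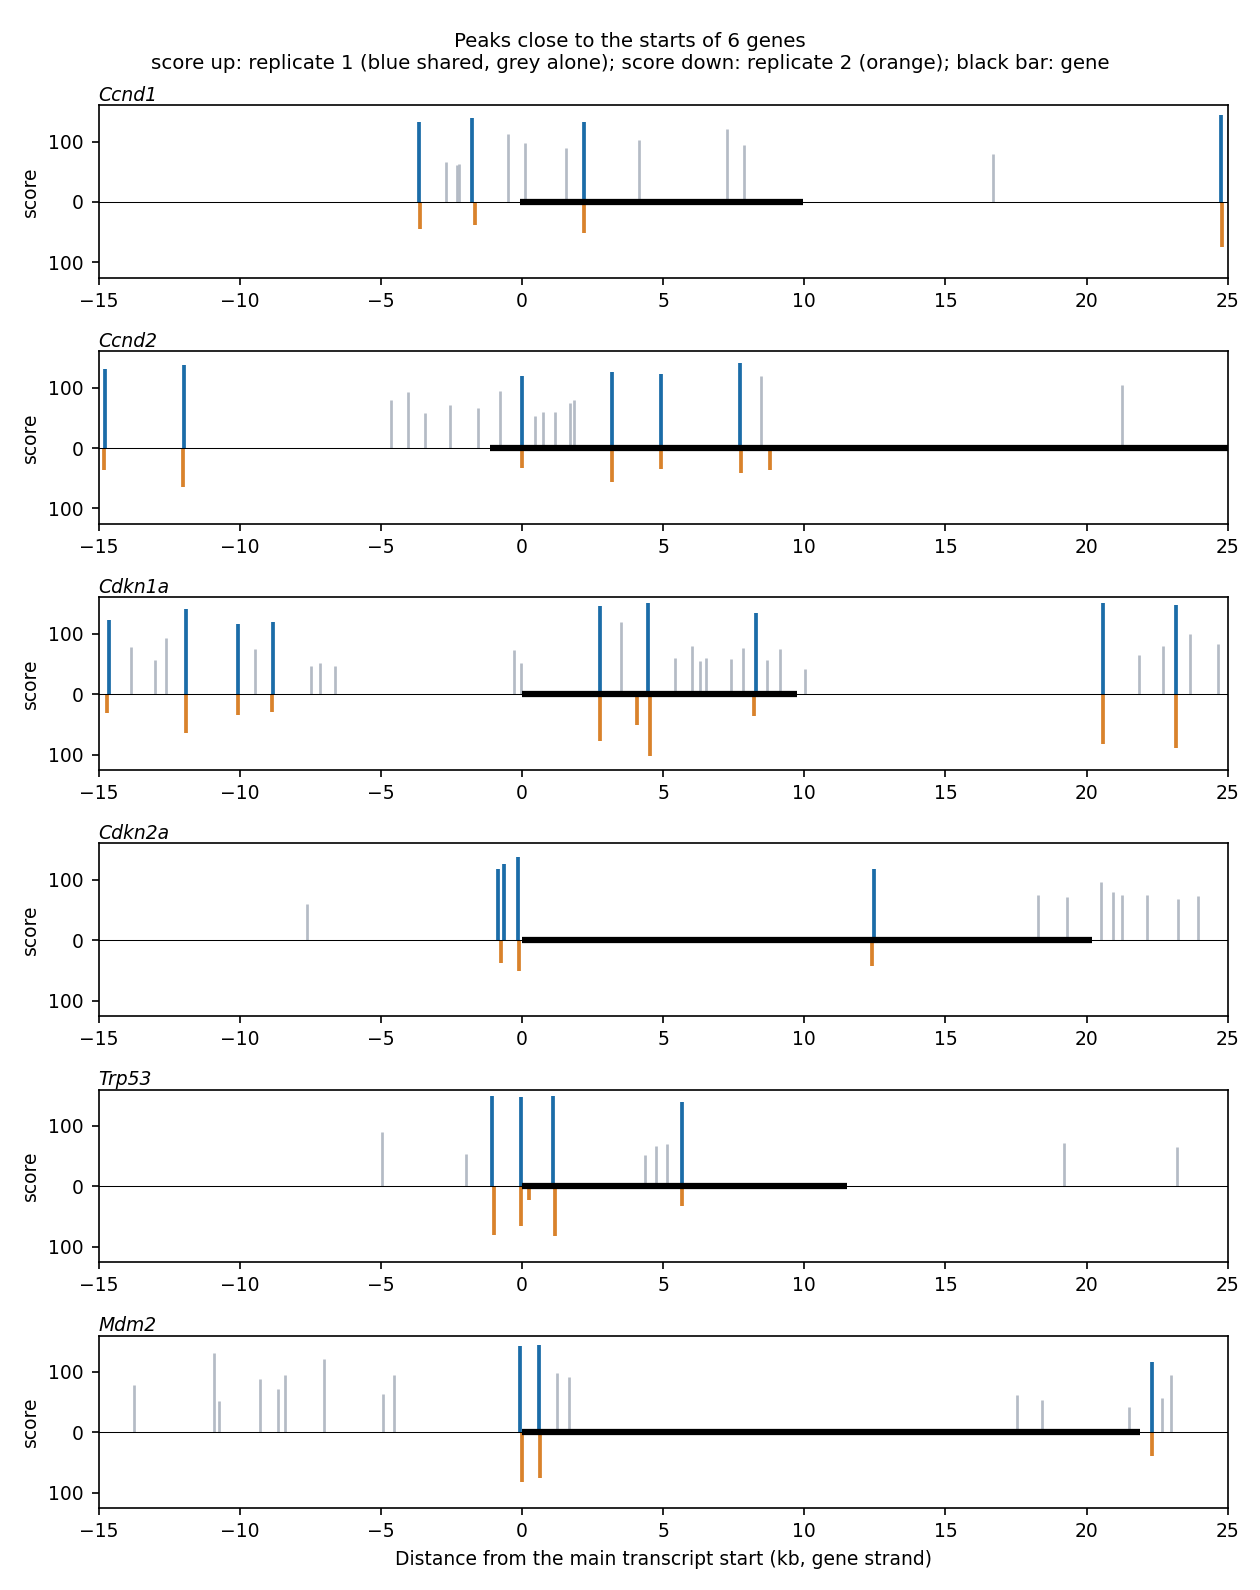
Deposited peak score (vertical axes; up for replicate 1, down for replicate 2) from 15 kb upstream to 25 kb downstream of the main start (horizontal axis, kb on the gene's strand) at 6 genes; blue bars are shared peaks, grey ones peaks of replicate 1 alone, and the black bar is the gene. Ccnd1 has no orange bar at its start, Cdkn1a none at 0 kb but its tallest at 4.53 kb, and Trp53 and Mdm2 have them at and beside the start.

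Motifs were counted in the replicate 1 windows of the 27 shared peaks at the genes' own starts. KLF/SP matches (GGGCGG) were found in 13 (48.1%, beside 44.9% of all shared promoter peaks) and NFY matches (CCAAT) in 5 (18.5% beside 23.0%). RUNX matches were in 3 (11.1% beside 2.74%), of which that of Cdk4 is not in the replicate 2 window. CCGGAAGT was in none (beside 4.37%). All 27 lay in a replicate 1 hotspot at the ceiling, as did 99.2% of all shared promoter peaks. In replicate 2, 12 (44.4%) lay in a hotspot at the ceiling, where 69.1% of all shared promoter peaks did. Neighbouring peaks of a gene are not independent, and all 7 of Cdk6 and all 4 of Cdkn2a lay below the ceiling. The lower pooled share therefore rests largely on these genes. By gene, 7 of the 10 had their strongest start peak in a replicate 2 hotspot at the ceiling, and Cdk6, Ccnd2 and Cdkn2a had it in one below.

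The wider network was taken as 61 genes in 6 groups. A shared promoter peak was present at 57 of them, read against the 58.2% of all protein-coding genes. All 13 RB and E2F genes had one, led by E2f8 (150 and 102), E2f1 (149 and 107) and E2f3 (150 and 95). Of the 10 later cyclins and their kinases 9 did, led by Cdc25a (150 and 98), the phosphatase that activates Cdk2, then Ccne1 (149 and 92) and Ccnb1 (148 and 93). The testis-associated cyclin Ccna1 had a promoter peak in replicate 1 alone (60).

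All 4 other inhibitors of cyclin-dependent kinases were open, led by Cdkn2d (p19Ink4d, 150 and 103), then Cdkn2b and Cdkn2c (147 and 77). So were all 4 genes of the turnover of inhibitors and D cyclins, with the ubiquitin ligase genes Fbxw7 at 150 and 107, Skp2 at 147 and 84 and Fbxo31 at 148 and 77. Of the 10 p53 regulators and relatives 8 were, led by the DNA damage kinases Atm (150 and 106), Chek2 (150 and 94) and Atr (149 and 94). The p53 relatives were the exceptions: Trp73 had a peak in replicate 1 alone (65) and Trp63 had none in either list.

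Of 20 p53 target genes 19 had a shared promoter peak, led by Polk (150 and 102), Aen (150 and 99) and Sesn2 (149 and 98), and Eda2r had none. None of the 627 replicate 1 peaks near these 20 genes held an exact full p53 site, which is rare in all classes of peak (0.010% to 0.055%), so this count sets them apart from no other genes.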

How the data were processed

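Peak and hotspot lists of mouse AML cells were used as deposited, 1 of each per biological replicate. Per the deposited notes, reads of both libraries of a replicate went into 1 mm10 alignment. Not given in the sources used here: peak caller, settings, read depth. The peak score, as deposited by the authors, is a whole number of unstated definition, and the hotspot value deposited by the authors is a −log10 q between 1.30 and 100. Entries repeated at 1 place (48 and 5) were kept once, and peaks on other sequences (539 and 121) were left out. Overlaps, percentiles, distances to GENCODE M21 starts, and exact matches to 20 motifs on both strands were computed with Python 3.11.15, pandas 2.3.3 and pysam 0.24.0, on GRCm38.p6, whose chromosome lengths fit mm10. Motif shares of shared peaks, and adjoining p53 pairs, were counted in replicate 1 windows. In the sequences shown, matches to GATA, MYB, MEIS and p53 units outside a pair were left in lower case. The functions were tested on simulated lists with planted overlaps and motifs. Promoter means within 1 kb of any transcript start of a coding gene. Main start means that of the gene's coding transcript with the longest span on the genome, which need not be the start most used. Genes and lists were chosen with earlier results of these data known. Named peaks were the strongest at each start region, up to 3 shared peaks outside promoters per gene by mean percentile, the strongest of replicate 1 alone where a gene had none shared, and further peaks chosen for their motifs after their values were seen. From the network list, genes without a shared promoter peak and the 3 highest per group were named. There is 1 condition, so no test was run. Alternatives were other windows, overlaps and list lengths.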

Additional observations from a re-analysis of the deposited data

How the results depend on the processing

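All 10 genes had a promoter peak with promoter windows of 500 bp or 2500 bp, an overlap of at least 50% of the window, either list alone or lists of equal length, and 9 did when only shared peaks above the median mean percentile (68.0) counted, Ccnd2 being below it. Over the same settings 51.1% (above that median) to 71.1% (replicate 1 list alone) of all coding genes had one. The 57 network genes ranged from 57 to 59 over their alternatives. The 70 shared peaks outside promoters became 35 with gene windows of 10 kb and 116 with 100 kb, 41 above the median mean percentile, and 371 for the replicate 1 list alone, and ranged from 56 to 77 otherwise. The share of replicate 1 peaks that were shared rose from 23.9% to 62.9% when that list was thinned to the length of the other by score (70.0% over the whole thinned list). There 86.2% of replicate 2 peaks were shared, beside 70.9% of the whole list, so the closeness to the whole list seen at full length was lost. The share of replicate 2 peaks fell from 91.5% to 83.8% with an overlap of at least 50%. Of 40 values for single genes, 13 moved by more than 1.5 times, all with other gene windows. With 10 kb these were Cdk4 and Ccnd1 (1 and 2), Ccnd2, Ccnd3, Cdkn1a, Trp53 and Mdm2, and with 100 kb Cdk4, Ccnd1, Cdkn1a, Cdkn1b, Cdkn2a and Mdm2. The depth of both lists is unknown, so for peaks of the longer list alone depth and a difference between the cultures cannot be told apart. No paired analysis was possible because the values of a replicate come from 1 pooled list and there is 1 condition.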
